A study of Homo sapiens with 3 samples.

Results

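The contractile genes of the breast myoepithelium were read in 3 replicates of MCF10A cells. The set held 10 genes, chosen by name: ACTA2, TAGLN, CNN1, MYLK, MYH11, MYL9, OXTR, TPM1, TPM2 and CALD1. All 10 were found by Ensembl identifier among the 62754 genes of the table. MCF10A is an established line of immortalised human breast epithelium that does not form tumours. The cells carried the empty vector (EV) of the Retro-X Tet-One inducible system, were selected with puromycin, held no inserted gene, received no treatment and were grown exponentially. All 3 libraries were of this 1 condition, so no group could be set against another. Their titles and library names do not name a batch. The labels do not say whether the replicates came from separate cultures, so the spread between them may be technical.

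Myoepithelial cells form the outer layer of the mammary ducts and alveoli and squeeze milk towards the nipple. Oxytocin from the pituitary binds its receptor OXTR, which acts through Gq and phospholipase C to release calcium from internal stores. Calcium bound to calmodulin activates the myosin light chain kinase MYLK, which phosphorylates the regulatory light chain MYL9 and so starts the sliding of the myosin MYH11 along filaments of smooth muscle actin, ACTA2. The tropomyosins TPM1 and TPM2, caldesmon (CALD1) and calponin (CNN1) lie along these filaments, and transgelin (TAGLN, also called SM22) is an actin-binding protein of smooth muscle. Many of these genes are targets of the serum response factor SRF, which binds the CArG box, and of its partners of the myocardin family.

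Levels were read in TPM, in which reads are divided by transcript length and scaled to the same total in each library, so that genes can be compared with each other. By the mean, 6 of the 10 reached 1 TPM, the value the study used as its cutoff for an expressed enzyme, and these 6 did so in each replicate. Of all genes measured, 24.9% reached 1 TPM, and of protein-coding genes 56.7% did. The share of the contractile genes was therefore close to that of protein-coding genes in general. The genes spread over a wide range, from TPM2, with rank 493 among 20046 protein-coding genes, to CNN1, which had 0 reads in every library. In such bulk samples a small number of cells with a high level cannot be told apart from a low level in every cell.

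**Figure D1:**
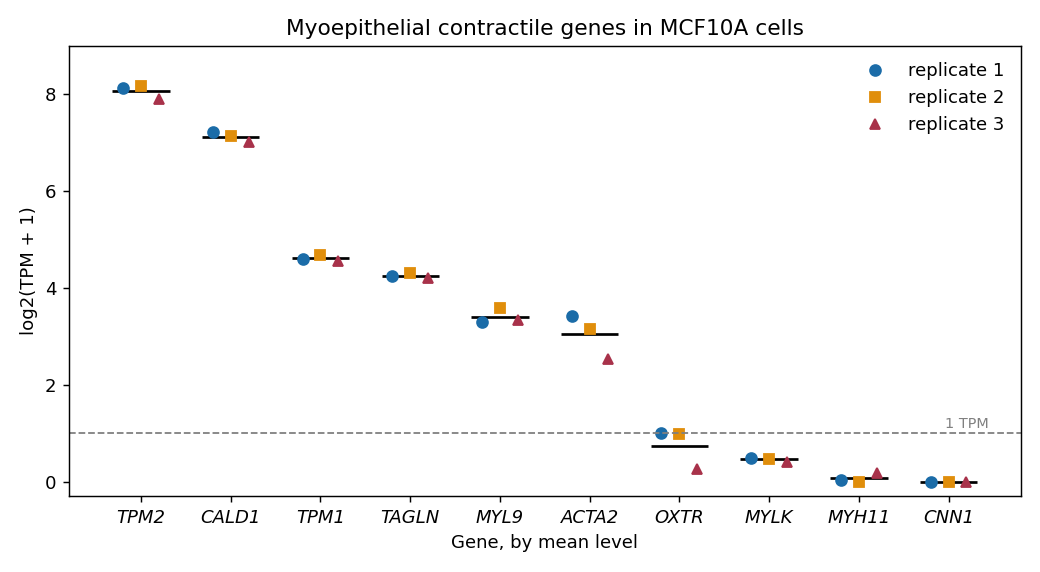
The log2(TPM + 1) of each contractile gene is plotted for the 3 replicates (circle, square and triangle), with a black line at the mean and a dashed line at 1 TPM. TPM2 and CALD1 stand far above the others, TPM1, TAGLN, MYL9 and ACTA2 form a middle group, and OXTR, MYLK, MYH11 and CNN1 lie at or under the dashed line.

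TPM2 and CALD1, both regulators along the thin filament, were the most abundant of the 10. TPM2, which codes for beta-tropomyosin (ENSG00000198467, hg38 chr9:35681992-35690056, minus strand), was at 278, 286 and 238 TPM, with a mean of 267 ± 25.5 (SD, n = 3). It was highest of the 10 in all replicates, and replicate 3 was the lowest. CALD1, the caldesmon gene (ENSG00000122786, chr7:134744252-134970729, plus strand), was at 148, 139 and 129 TPM, with a mean of 139 ± 9.30 (SD, n = 3). The gene codes for both the long caldesmon of smooth muscle and the short caldesmon of other cells, which gene-level values do not separate. The 10 genes summed to 466 ± 38.2 TPM, and TPM2 and CALD1 together made up 87.1% ± 0.256 of that sum (SD, n = 3).

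TPM1, which codes for alpha-tropomyosin (ENSG00000140416, chr15:63042620-63071915, plus strand), was at 23.3, 24.8 and 22.4 TPM, with a mean of 23.5 ± 1.21 (SD, n = 3). TPM2 was 11.4 ± 0.674 times as high as TPM1 (SD, n = 3). This ratio depends on the length by which reads were divided. The deposited values of TPM1 rest on its longest transcript, of 3957 bases, whereas its canonical transcript has 1217. With canonical lengths TPM1 rose to 62.8 TPM and TPM2 to 290 TPM, so TPM1 stayed the lower. TPM1 has 39 annotated transcripts, more than any other of the 6 genes at or above 1 TPM.

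**Figure D2:**
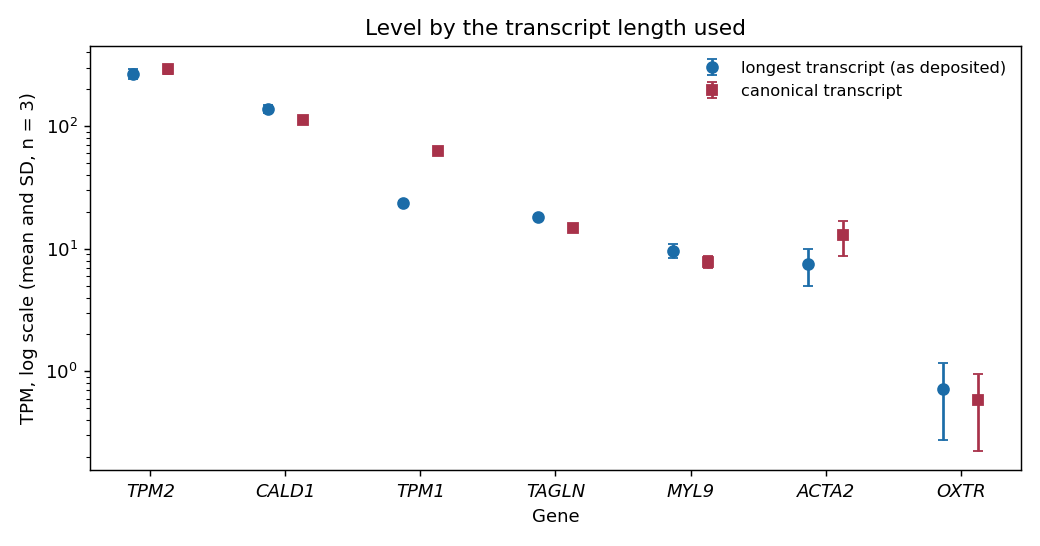
Mean TPM with its SD (n = 3, log axis) is plotted for the 7 highest contractile genes, with reads divided by the longest transcript as deposited (circles) or by the canonical transcript (squares). TPM1 and ACTA2 move up with the canonical length, by 2.65 and 1.70 times, and ACTA2 then lies above MYL9.

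The genes that are classical markers of smooth muscle differentiation were in the middle of the order or near its end. TAGLN (ENSG00000149591, chr11:117199370-117207464, plus strand) was at 18.0, 18.8 and 17.5 TPM, with a mean of 18.1 ± 0.676 (SD, n = 3). Its replicates lay closer together, relative to the mean, than those of the other genes of the set at or above 1 TPM. Of the bases of its canonical transcript, 66.0% were shared on the same strand with ENSG00000280143, a gene model of unproven status that had 0, 4 and 0 reads, and 59.0% were shared on the opposite strand with PCSK7, which was at 21.9, 25.9 and 18.4 TPM. Whether strand was used in counting is not given in the sources used here. Reads of TAGLN divided only by the bases not shared on the same strand, called its unshared bases here, gave 53.2 TPM. The bases shared with PCSK7 on the opposite strand were not taken out. This value holds only if no read was counted in the bases shared on the same strand.

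ACTA2 (ENSG00000107796, chr10:88935074-88991339, minus strand) was at 9.76, 7.92 and 4.82 TPM, with a mean of 7.50 ± 2.49 (SD, n = 3). These values rest on 145, 121 and 61 reads, and the exact 95% counting intervals of replicate 1, from 8.23 to 11.5 TPM, and of replicate 3, from 3.69 to 6.20 TPM, do not overlap. Replicate 3 was therefore low beyond counting error. ACTA2 shares 38.3% of the bases of its canonical transcript with the antisense gene ACTA2-AS1, which was at 2.10, 3.77 and 0.821 TPM and so was lowest in replicate 3 too. Its part in the values of ACTA2 was not tested.

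No reads of CNN1 (ENSG00000130176, chr19:11538767-11550323, plus strand) were counted in any library. A count of 0 allows up to 3 reads, which are worth 0.309, 0.301 and 0.364 TPM in replicates 1, 2 and 3. No exon of another gene overlaps its canonical transcript. Of protein-coding genes, 26.2% were at 0 reads in all 3 libraries. MYH11 (ENSG00000133392, chr16:15703135-15857028, minus strand), the heavy chain of smooth muscle myosin, had 1, 0 and 4 reads, or 0.0275, 0 and 0.129 TPM. It shares 13.3% of its canonical transcript on the opposite strand with NDE1, which was at 37.4, 40.2 and 31.1 TPM, so that these few reads could belong to either gene. CNN1 and MYH11, both late markers of smooth muscle differentiation, thus had the fewest reads of the set.

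MYL9, MYLK and OXTR belong to the steps that start contraction. MYL9, a regulatory light chain of myosin (ENSG00000101335, chr20:36541497-36551447, plus strand), was at 8.87, 11.0 and 9.06 TPM, with a mean of 9.65 ± 1.19 (SD, n = 3). MYLK (ENSG00000065534, chr3:123610049-123884332, minus strand) was at 0.414, 0.385 and 0.332 TPM, from 22, 21 and 15 reads. Both genes were at like levels in the 3 replicates, MYLK below 1 TPM in all of them. MYLK shares 6.05% of its canonical transcript on the opposite strand with the antisense gene MYLK-AS1, which was at 2.49, 4.53 and 4.50 TPM. The part of MYLK-AS1 in the values of MYLK was not tested. OXTR (ENSG00000180914, chr3:8750381-8769628, minus strand) was at 0.996, 0.969 and 0.204 TPM, from 23, 23 and 4 reads, with a mean of 0.723 ± 0.450 (SD, n = 3). The receptor was just under 1 TPM in 2 libraries and lower in replicate 3, whose counting interval, from 0.0554 to 0.521 TPM, does not reach those of replicate 1 (0.631 to 1.49 TPM) and replicate 2 (0.614 to 1.45 TPM).

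Between neighbours in the order of means, 6 of 9 pairs had replicate ranges that did not overlap, each with an exact two-sided permutation p of 0.1 (0.15 after Benjamini-Hochberg adjustment over the 9 pairs). A comparison of 3 with 3 replicates cannot go below 0.1. These 6 were TPM2 over CALD1, CALD1 over TPM1, TPM1 over TAGLN, TAGLN over MYL9, ACTA2 over OXTR and MYLK over MYH11. The smallest of these steps was from TPM1 to TAGLN, by 1.30 times, and it depends on length. With canonical lengths TPM1 was at 62.8 and TAGLN at 14.8 TPM. TAGLN over its unshared bases, at 53.2 TPM, lay above TPM1 as deposited. MYL9 and ACTA2 overlapped (exact permutation p = 0.3, adjusted 0.386), with ACTA2 above MYL9 in replicate 1 and below it in replicates 2 and 3. OXTR and MYLK overlapped (exact permutation p = 0.4, adjusted 0.4), with MYLK above OXTR in replicate 3, and so did MYH11 and CNN1. The order within these 3 pairs, and that of TPM1 and TAGLN, is not settled by the data. The remaining pairs kept their order in all 3 replicates, which describes these libraries, since no test of this size could settle it.

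Promoter sequences from RefSeq (build GRCh38.p14, 250 bases before to 50 after each annotated start) were found for 7 of the 10 genes, with 14 starts. The stretches of ACTA2 and CNN1 are shown because both genes are known as SRF targets and one was measured while the other had 0 reads. The 250 bases upstream of one start of ACTA2 (chr10:88952774-88953023, minus strand) and of CNN1 (chr19:11538601-11538850, plus strand) are written 5′ to 3′, with capitals for a CArG-like box, which is CC, then 6 bases of which 5 are A or T, then GG.
ACTA2: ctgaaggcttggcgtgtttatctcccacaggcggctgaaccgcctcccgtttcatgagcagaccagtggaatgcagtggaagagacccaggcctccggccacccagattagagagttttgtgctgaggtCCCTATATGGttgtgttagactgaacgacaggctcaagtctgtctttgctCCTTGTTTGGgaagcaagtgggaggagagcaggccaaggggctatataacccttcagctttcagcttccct
CNN1: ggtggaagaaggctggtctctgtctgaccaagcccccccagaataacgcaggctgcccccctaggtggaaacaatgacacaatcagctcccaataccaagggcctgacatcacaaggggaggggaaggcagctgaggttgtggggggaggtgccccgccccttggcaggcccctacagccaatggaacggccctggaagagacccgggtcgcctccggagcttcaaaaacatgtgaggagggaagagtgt
The boxes of ACTA2 begin 121 and 71 bases before its start. No such box or full CArG box was found in the window of CNN1, which says only that these letters are not there.

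The other boxes in promoters of the set are shown with 12 bases on each side, again with the box in capitals. A full CArG box, in which all 6 inner bases are A or T, was found in MYLK (chr3:123620621-123620654, minus strand). It stands before an internal start, at base 123620548, 263784 bases downstream of the 5′ end of the gene, and this was the 1 start of MYLK in the table. The promoter at the 5′ end of MYLK was therefore not read. OXTR (chr3:8769673-8769706, minus strand) and CALD1 (chr7:134711461-134711494, plus strand) had CArG-like boxes, that of CALD1 at a start that lies before the first base of the gene in GENCODE. TAGLN, MYH11 and MYL9 had no entry. All full boxes found in paralogs are added: ACTA1 (chr1:229434170-229434203, minus strand), ACTG2 (chr2:73892886-73892919 and chr2:73892923-73892956, plus strand), ACTC1 (chr15:34795637-34795670, minus strand), ACTG1 (chr17:81512872-81512905, minus strand), CNN2 (chr19:1026507-1026540, plus strand) and TPM4 (chr19:16067353-16067386, plus strand).
MYLK: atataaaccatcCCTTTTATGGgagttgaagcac
OXTR: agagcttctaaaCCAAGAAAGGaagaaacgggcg
CALD1: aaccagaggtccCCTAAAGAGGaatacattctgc
ACTA1: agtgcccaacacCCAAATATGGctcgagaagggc
ACTG2: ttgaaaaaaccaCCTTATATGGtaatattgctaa
ACTG2: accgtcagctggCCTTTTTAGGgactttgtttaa
ACTC1: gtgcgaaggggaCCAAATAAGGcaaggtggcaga
ACTG1: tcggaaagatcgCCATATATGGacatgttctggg
CNN2: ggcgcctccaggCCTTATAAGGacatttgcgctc
TPM4: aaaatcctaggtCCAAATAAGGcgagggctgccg
A full CArG box was found in 1 of the 14 promoters of the set and in 1.29% of all 35116 promoters. That 1 was at the internal start of MYLK. A CArG-like box was found in 3 of 14 and in 6.94% of all. The MCAT motif, CATTCC on either strand, was found in 4 of 14, in promoters of ACTA2, CALD1 and MYLK, and in 14% of all. A full box stood in paralogs with high levels (ACTG1, CNN2 and TPM4) and in others below 1 TPM (ACTG2, ACTA1 and ACTC1). TPM1 and TPM2, among the highest of the set, had none of these motifs in their windows.

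Each gene of the set other than CALD1 was set beside its family. Apart from the receptors and kinases, these families hold genes that serve the cytoskeleton of many cell types. In 5 of 8 families, the contractile gene held under 2% of the summed level, and in 4 of 8 when TAGLN was divided by its unshared bases.

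Among the actins, ACTB and ACTG1, the cytoplasmic actins, had means of 7943 ± 983 and 3306 ± 434 TPM (SD, n = 3). ACTB was 864 to 1412 times and ACTG1 364 to 581 times as high as ACTA2 in the same replicate. ACTA2 made up 0.0655% ± 0.0156 of the summed actins (SD, n = 3). It was nevertheless the highest of the muscle actins: ACTG2, the enteric smooth muscle actin, was at 0.277, 0.270 and 0.217 TPM, ACTA1 of skeletal muscle had a mean of 0.0885 TPM, and ACTC1 of the heart had 0 reads. Coding sequences of the actins are near-identical, and how reads that match several of them were counted is not given in the sources used here, so that small values beside an abundant paralog are uncertain.

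The transgelin and calponin families had the same form. TAGLN2 was at 1150 ± 133 TPM (SD, n = 3), 56.9 to 68.4 times as high as TAGLN, which made up 1.56% ± 0.148 of its family. TAGLN3 had a mean of 0.275 TPM. CNN2 and CNN3, the calponins of nonmuscle cells, were at 325 ± 39.1 and 55.5 ± 8.15 TPM (SD, n = 3). Against the limit of 3 reads per library for CNN1, CNN2 was at least 770-fold and CNN3 at least 128-fold higher. CNN1 thus had no reads in libraries in which CNN2 and CNN3 were well above 1 TPM. Whether these levels are linked was not tested.

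The myosin heavy and light chains followed. MYH9 and MYH10, the nonmuscle myosins IIA and IIB, were at 534 ± 69.5 and 81.1 ± 9.78 TPM (SD, n = 3), whereas MYH11 made up 0.00962% ± 0.0132 of the summed family (SD, n = 3) and MYH14 had 0 reads. The share of MYH11 rests on 5 reads and was 0.00209% without replicate 3. MYL12A and MYL12B, the nonmuscle regulatory light chains, were at 614 ± 24.2 and 566 ± 45.8 TPM (SD, n = 3). MYL12A was 53.7 to 72.2 times and MYL12B 49.3 to 69.8 times as high as MYL9, which held 0.815% ± 0.134 of the family.

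Tropomyosins were shared more evenly. TPM4 and TPM3 were at 295 ± 25.7 and 244 ± 27.1 TPM (SD, n = 3). In each replicate TPM4 was above TPM2, by 1.09 to 1.12 times, and TPM3 below it, at 0.893 to 0.945 of its level. TPM1 and TPM2 together made up 35.1% ± 0.476 of the family (SD, n = 3), a share that varied little between replicates. With canonical lengths TPM4 was at 477, TPM2 at 290 and TPM3 at 199 TPM, in the same order. Each tropomyosin gene gives muscle and nonmuscle isoforms, which these values do not separate.

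In the kinase and receptor families no gene was high. MYLK made up 18.2% ± 2.04 of a family sum of 2.09 TPM, and MYLK4 was 2.84 to 3.98 times as high as MYLK at a mean of 1.30 TPM. MYLK2 was at 0.373 TPM and MYLK3 at 0.0406 TPM. OXTR was the 1 receptor of its family with reads in all 3 libraries. AVPR1A and AVPR1B, vasopressin receptors, had 0 reads, and AVPR2 was at 0.313, 0 and 0.245 TPM, with a mean of 0.186. In replicate 3 OXTR, at 0.204 TPM from 4 reads, was below AVPR2, from 2 reads. OXTR made up 73.8% ± 27.4 of the summed family (SD, n = 3).

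**Figure D3:**
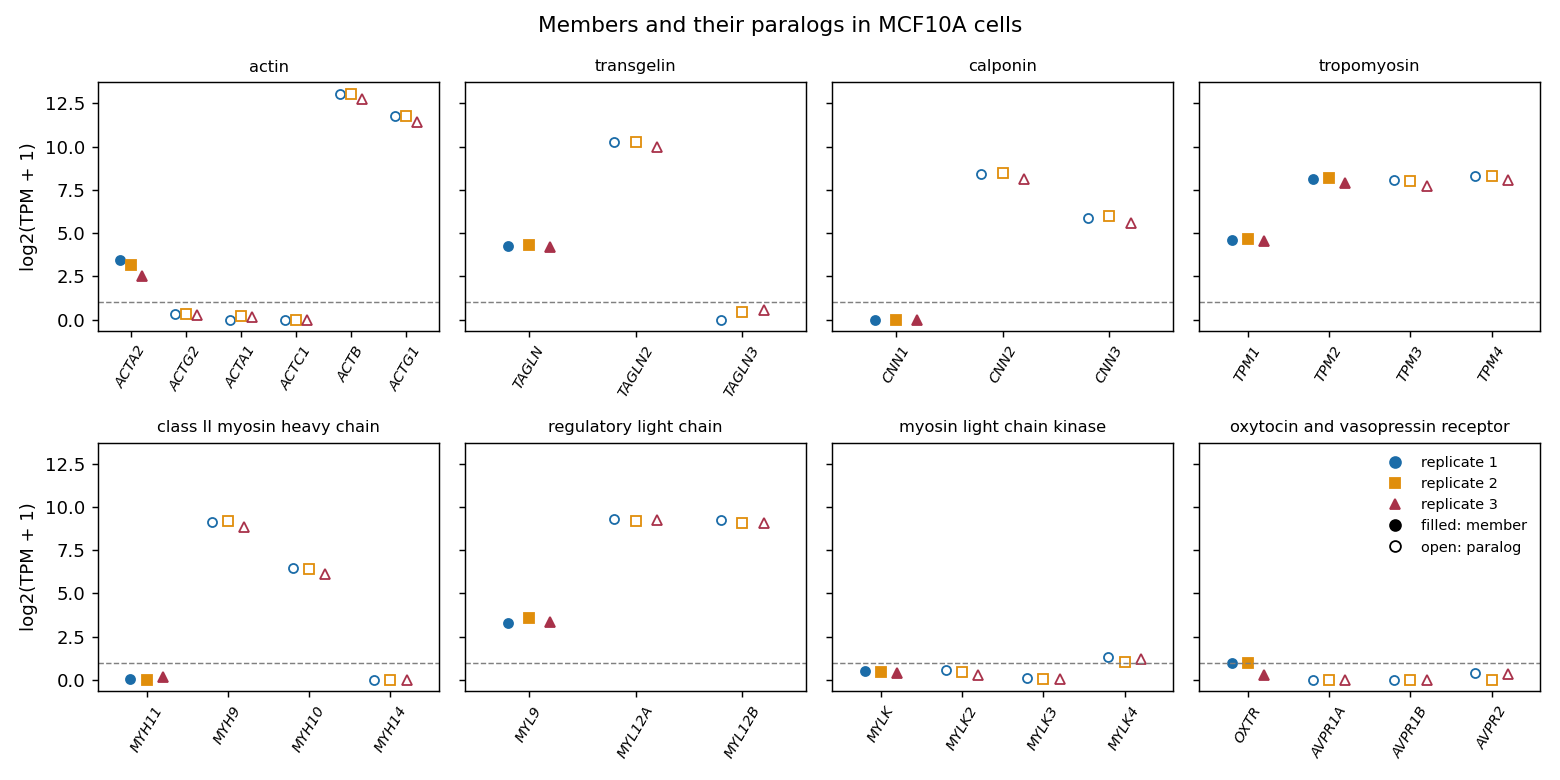
The log2(TPM + 1) of the contractile genes (filled) and their paralogs (open) is plotted by family for the 3 replicates, with a dashed line at 1 TPM. In the actin, transgelin, calponin, heavy chain and light chain panels the nonmuscle paralogs lie far above the contractile gene, whereas TPM2 lies level with TPM3 and TPM4.

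The spread between replicates was small for most of the set. The SD of log2(TPM + 1) had a median of 0.12 over the 6 genes at or above 1 TPM, beside 0.19 over all 15640 such genes. Over all genes at or above 10 TPM the median SD was 0.16. The log2(TPM + 1) of replicate 3 minus that of the mean of replicates 1 and 2 had a median of -0.24 over these 15640 genes. TPM sum to the same total in each library, so this is a change in shares. Protein-coding genes held a smaller share of replicate 3. Total TPM was 1.26 times their sum there, beside 1.09 and 1.11 times in replicates 1 and 2. The set had a median of -0.14, with TAGLN at -0.07, TPM1 at -0.10, MYL9 at -0.12, CALD1 at -0.15 and TPM2 at -0.24. Replicate 3 was also the shallowest library, at 11166546 reads beside 15273329 and 15446347.

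ACTA2 stood apart at -0.76, lower than all but 7.54% of the genes at or above 1 TPM. Its SD, 0.45, was above that of 85.1% of the 1786 genes between 5 and 10 TPM on average, whose median was 0.21. OXTR, under 1 TPM, was at -0.72. When protein-coding genes were scaled to the same sum in each library, the median of all genes moved to -0.07 and ACTA2 was still at -0.61 and OXTR at -0.73, whereas TAGLN, TPM1, MYL9 and CALD1 turned to 0.11, 0.08, 0.05 and 0.04. The lower values of these 4 genes in replicate 3 thus held on the deposited scale and not on that one.

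**Figure D4:**
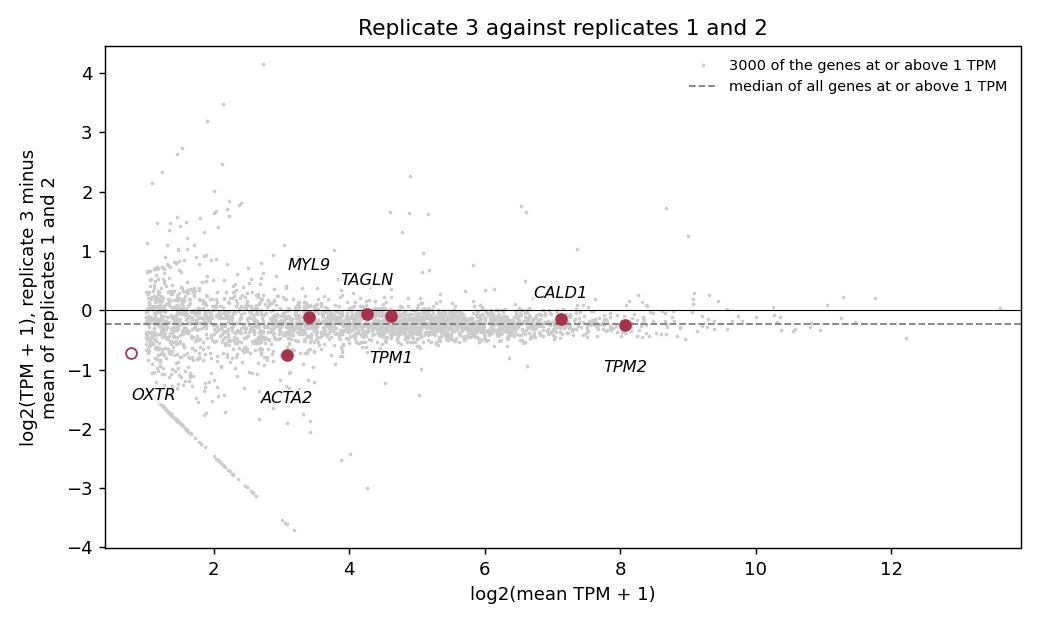
The difference in log2(TPM + 1) between replicate 3 and the mean of replicates 1 and 2 is plotted against the mean level, for contractile genes (red, OXTR open because it is below 1 TPM) and 3000 other genes (grey), with a dashed line at the median of all genes at or above 1 TPM. ACTA2 at -0.76 and OXTR at -0.72 lie well under the dashed line, and the other 5 named genes lie on it or between it and 0.

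By the Euclidean distance of log2(TPM + 1) over the 3 replicates, the protein-coding gene nearest to TPM2 among 20045 was CD151 (distance 0.0556), to CALD1 it was SLBP (0.0255), and to TPM1 it was PTRH2 (0.0486). With 3 replicates such nearness is mostly that of the level: 66, 142 and 224 genes lay within 0.2 of TPM2, CALD1 and TPM1.

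Of 12 other genes of smooth muscle 6 were at or above 1 TPM, a share near the 56.7% of all protein-coding genes. These were FLNA, filamin A (708 ± 85.6 TPM), ACTN1, alpha-actinin (332 ± 50.1), PDLIM7 (203 ± 32.6), VCL, vinculin (114 ± 10.3), CSRP1 (90.9 ± 8.43) and SMTN, smoothelin (63.5 ± 11.7; SD, n = 3). The other 6 were below 0.3 TPM, among them DES, the muscle intermediate filament desmin, with a mean of 0.177 TPM, and LMOD1, leiomodin of smooth muscle, at 0 reads. Those detected are also part of the cytoskeleton and adhesions of epithelial cells.

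Signalling genes that lead to contraction were largely present. Of 25 genes, 21 were at or above 1 TPM, beside 56.7% of all protein-coding genes. All 9 genes of calcium stores and calmodulin were, with CALM3 highest at 258 ± 42.0 TPM (SD, n = 3). Of the Gq and phospholipase C genes 3 of 5 were, with PLCB1 at 0.347 and PLCB4 at 0.636 TPM below. Of the myosin phosphatase genes 5 of 6 were, with PPP1R14B at 495 ± 91.2 TPM (SD, n = 3), whereas PPP1R14A, the phosphatase inhibitor CPI-17 of smooth muscle, had a mean of 0.0669 TPM. OXT, the oxytocin gene, had 0 reads. The components shared by most cells were therefore mostly well above 1 TPM, while the receptor OXTR and the kinase MYLK were below 1 TPM.

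Of 8 regulators of SRF-dependent transcription, 7 were at or above 1 TPM, beside 56.7% of all protein-coding genes. SRF itself was at 49.7, 52.2 and 42.0 TPM. Its partners MRTFA and MRTFB, which answer to free actin, were at 30.5 ± 5.09 and 24.3 ± 2.49 TPM, and ELK1, a partner that competes with them, was highest at 55.5 ± 7.16 TPM (SD, n = 3). MYOCD, myocardin, the partner found mainly in heart and smooth muscle, had 0 reads in every library.

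**Figure D5:**
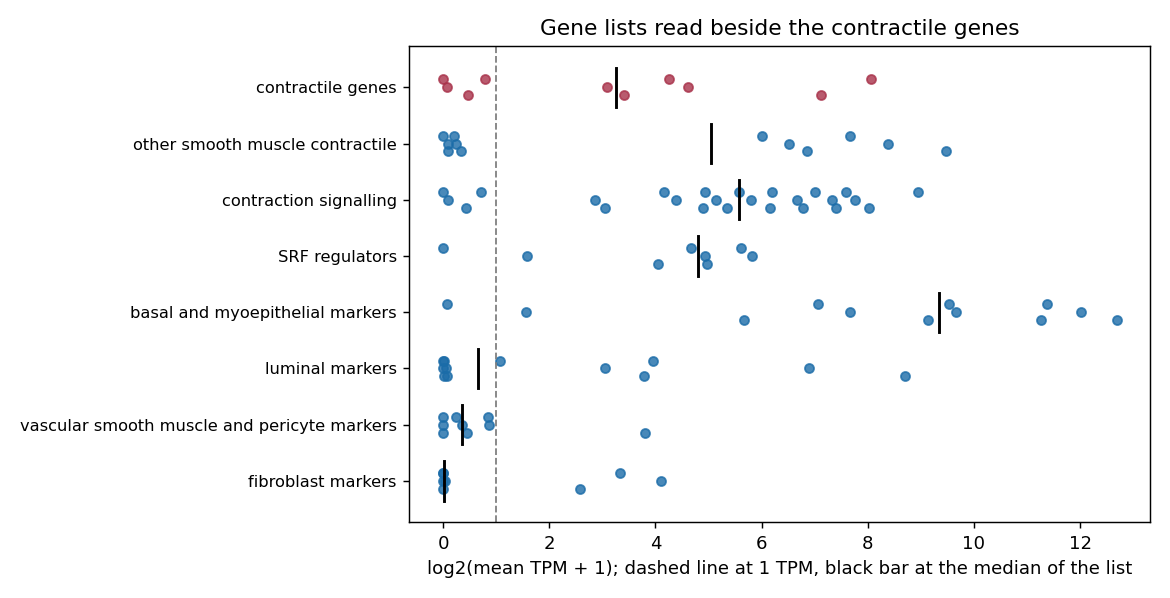
Each point is the log2(mean TPM + 1) of 1 gene, by list, with a dashed line at 1 TPM and a black bar at the median level of the list. The contractile genes (red, median 8.57 TPM) reach from 0 to TPM2, most signalling genes and SRF regulators lie to the right of the dashed line, and most vascular and fibroblast markers lie at or near 0.

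Cell type markers were read beside the labelled breast epithelium. The lists were chosen with earlier results of these data known, so their counts are descriptive and do not test the cell type. Of all protein-coding genes, 56.7% were at or above 1 TPM. Of 12 basal and myoepithelial markers 11 were at or above 1 TPM, with the basal keratins KRT5 at 6612 ± 890 and KRT14 at 4144 ± 618 TPM and the basal transcription factor TP63 at 49.8 ± 6.15 TPM (SD, n = 3). MME (CD10), a surface marker of myoepithelial cells, was low at 1.98, 1.89 and 1.94 TPM, and NGFR had a mean of 0.0580 TPM. Of 12 luminal markers 6 were at or above 1 TPM, a share near that of all protein-coding genes. KRT18 was at 413 ± 44.8 and KRT8 at 118 ± 11.4 TPM (SD, n = 3), and ELF5 and KIT were at 0 reads.

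Markers of the other cells that make these contractile proteins were few, beside the 56.7% of all protein-coding genes at or above 1 TPM. Of 9 vascular smooth muscle and pericyte markers 1 was at or above 1 TPM, MCAM at 12.9 ± 1.49 (SD, n = 3), which epithelial lines can also make. The list summed to between 13.6 and 17.5 TPM, and MYOCD, KCNJ8 and ABCC9 were at 0 reads. RGS5 followed at 0.828 and NOTCH3 at 0.798 TPM. Of 8 fibroblast markers 3 were at or above 1 TPM, FAP at 16.1 ± 0.653, DCN at 9.05 ± 0.300 and COL1A1 at 4.96 ± 0.390 TPM (SD, n = 3), with a list sum between 29.3 and 31.2 TPM. COL1A2, PDGFRA, LUM and THY1 were at 0 reads. The sums of both lists were above the mean level of ACTA2, and their part in the levels of the contractile genes was not tested.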

How the data were processed

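RNA was measured in 3 replicates of EV MCF10A cells, from 300 ng RNA with ribosomal RNA depleted (KAPA RNA HyperPrep with RiboErase) on an Illumina sequencer. The authors mapped reads to hg38 and counted them by Seq2science, and deposited TPM, which sum to 1000000 per replicate; the submitters' processing notes name fastp, STAR and MultiQC. The annotation release, the use of strand and the treatment of reads with several matches are not given in the sources used here. Members and lists were chosen with earlier results of these data known.

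Genes were joined by Ensembl identifier to GENCODE release 44 (62700 of 62754 found). TPM times the counting length (longest transcript less 1 base per exon), divided by its smallest step, gave whole numbers (within 0.01) for 100% of annotated genes and was read as reads, 15273329, 15446347 and 11166546 per replicate. On simulated counts for 62700 genes this step returned 100% of reads. Counting intervals are exact 95% Poisson intervals and, like the limit of 3 reads, cover counting error only. Differences used log2(TPM + 1). Since the files hold 1 condition, no differential expression was tested. Neighbours in the order of levels were compared by exact permutation tests. The text names every contractile gene and family gene, at least the 2 highest and the undetected genes of the other lists, and the nearest gene of the 3 highest. PLCB1, PLCB4, PPP1R14A and the genes that overlap a contractile gene were named after their values were seen. The result of 1 group of the signalling list is not reported here. Alternatives were the cutoff, scaling, transcript length, pseudocount and each replicate left out. The tools were scipy 1.17.1, pandas 2.3.3, numpy 2.4.6 and Python 3.11.15, with figures by matplotlib 3.10.9.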

Additional observations from a re-analysis of the deposited data

How the results depend on the processing

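The count of 6 contractile genes at or above 1 TPM was 7 with a cutoff of 0.5 TPM, through OXTR, and 6 under each other alternative run. With that cutoff 3 vascular and pericyte markers passed in place of 1, and 22 signalling genes in place of 21. With a cutoff of 2 TPM 10 basal markers passed in place of 11, and 5 luminal markers in place of 6. The luminal count was also 5 when every replicate had to reach 1 TPM, with canonical lengths and without replicate 3. Scaling protein-coding genes to the same sum gave 536 TPM for the sum of the 10 genes. With canonical transcript lengths ACTA2 lay above MYL9, ACTA2 held 0.10% of the actins, TAGLN 1.34% of the transgelins and TPM1 with TPM2 34.3% of the tropomyosins. Division by the bases unshared on the same strand, chosen after seeing the data, gave TAGLN 4.45% of its family. The median SD of log2(TPM + 1) over the contractile genes was 0.119 with a pseudocount of 0.1 and 0.0768 with protein-coding scaling. Over all genes at or above 1 TPM it was 0.207 and 0.142 in these settings. With 1 replicate left out it was between 0.0610 and 0.140 for the contractile genes and between 0.110 and 0.205 for all genes. Both were lowest without replicate 3. The cause of these shifts was not tested, other than the lengths and scales themselves. Of single levels, 6 of 10 moved by over 1 SD with canonical lengths, 6 with protein-coding scaling and 2 without mitochondrially encoded genes. With neighbouring genes paired within a library, a block by replicate chosen after seeing the data, 6 of 9 pairs kept 1 direction in all replicates, each with an exact sign-flip p of 0.25, the smallest that 3 replicates allow. Depth limits OXTR, MYLK, MYH11 and CNN1, at 50, 58, 5 and 0 reads over the 3 libraries.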
